A study of Arabidopsis thaliana with 3 samples.

Results

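The genes described here are those that were well measured in a comparison of mms19-1 seedlings with the wild type, Col-0 (Col). A gene locus was included when its mean level over the 3 sequenced libraries was at least 1 FPKM (fragments scaled to the length of the transcript and the size of the library), which 19771 of the 33559 loci in the table reached. Another 6645 loci had a lower mean, and 7143 were listed at 0 in every library. At the limit itself, CYP86C4 (1.09 FPKM in Col and 1.01 FPKM in mms19-1) fell just outside and AT1G43886 (1.04 and 1.00 FPKM) fell just inside.

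Poly(A) RNA was sequenced from seedlings 14 days old. Their sown seeds had been kept at 4 °C for 3 days, and the seedlings then grew on MS agar at 22 °C with 16 h of light and 8 h of dark. Each genotype had 1 library. Col is the unmutated parent. The mms19-1 line carries a T-DNA insertion in MMS19 and stands here for a single mutant allele. The labels and methods name this allele for the library, but 1 sentence of the study names mms19-2, another insertion allele, so the allele is taken from the labels. The third library, from the abo4 mutant, entered the mean above and is quoted beside some genes. That line carries a weak missense allele of ABO4, the gene for the catalytic subunit of DNA polymerase ε. Both mutants are set against the same Col library, so their ratios are not independent of each other.

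MMS19 is a scaffold of the cytosolic iron-sulfur cluster assembly pathway. It hands clusters to target proteins, among them replicative DNA polymerases, DNA helicases of the XPD family and DNA glycosylases, which lose activity without their cluster. In plants, DNA damage is signalled by the kinases ATM and ATR through SOG1, a NAC-type transcription factor that switches on DNA repair genes and inhibitors of the cell cycle. Flowering in Arabidopsis is held back by the MADS-box repressor FLC and its relatives, and is promoted by FT, the mobile signal that activates the floral identity genes.

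MMS19 (AT5G48120) lies on the minus strand of chromosome 5 at positions 19507397 to 19514895 (TAIR10.1, whose chromosomes carry the same positions as TAIR10). The primer pair that the study used to genotype the insertion matched the genome at 1 place each and is shown because it places the lesion region within the gene. The forward primer matched chr5:19514309-19514331 on the minus strand, in exon 4, and the reverse primer matched chr5:19513589-19513611 on the plus strand, in exon 7. The pair spans 743 bases of the uninterrupted gene, and the exons have these numbers in each of the 3 annotated transcripts.
forward primer: gcttgcggagattctcgattgtt
reverse primer: ttttctccgtcgatggcttcaca

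Short stretches upstream of some of the genes described below are shown next, since they are the known recognition sequences of the factors named with them. The 300 bases before the annotated start of each gene were searched on both strands. SOG1 binds CTTNNNNNNNAAG, a sequence that is its own reverse complement, and these letters occurred in 10.6% of the 19698 windows of well-measured genes. Of the windows of all 22 measured DNA damage genes, 6 held the motif (27.3%). Among those genes more than 2-fold higher in mms19-1, 5 of 7 windows held it, and the matches of PARP2, SMR5, SMR7 and NAC044 are shown. That group was formed from the measured ratios, so the count is a description. In the lines below the motif is in capitals, with 9 bases on either side, read along the strand of the gene. They lie at chr4:1049661-1049691 (PARP2, plus strand), chr1:2305106-2305136 and chr1:2305042-2305072 (SMR5, minus strand), chr3:10231589-10231619 (SMR7, minus strand) and chr3:229001-229031 (NAC044, plus strand) of TAIR10.1, and the motif starts between 96 and 32 bases before the gene.
PARP2: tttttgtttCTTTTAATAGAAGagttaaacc
SMR5, farther: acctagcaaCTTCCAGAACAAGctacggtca
SMR5, nearer: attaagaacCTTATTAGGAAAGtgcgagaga
SMR7: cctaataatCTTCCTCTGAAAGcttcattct
NAC044: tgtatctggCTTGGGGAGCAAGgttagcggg

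The core of the abscisic acid response element was searched as ACGTGNC, with any base allowed at N, and was found in 10.4% of windows. The core occurred 3 times before RD29B, 3 times before LEA7 and 2 times, overlapping, before GEA6 (chr5:21236974-21236998 plus, chr1:19619498-19619522 plus and chr2:16780391-16780415 minus for the stretches shown). Windows of 6 of 16 abscisic acid and dehydration genes held it, among them PP2CA, HAI2 and ABI1, which did not pass 2-fold. So did 5 of 8 seed maturation genes, a list written after its values were seen. It was also before 8 of 16 clock genes, all within 1.5-fold of Col. With at least 50 estimated reads, 19 of 127 genes more than 2-fold higher and 12 of 86 more than 2-fold lower had it. The element read by the zinc sensors bZIP19 and bZIP23 has the core TGTCGACA, which is also its own reverse complement. This core was present in 0.325% of windows, and in those of ZIP4 and IRT3 (chr1:3667162-3667187 and chr1:22447307-22447332, both minus) among the 10 measured zinc transport genes. The zinc list was written after its values were seen, so this count is a description. A match says only that the letters are present.
RD29B: ctggctgagACGTGGCaggacgaaa
LEA7: tgagtcaccACGTGTCtaacatctt
GEA6: aagtcagacACGTGGCatgtcacca
ZIP4: acgcgaaaaTGTCGACAtatttggct
IRT3: acaacaaaaTGTCGACAtttagttgg

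Most genes differed little between the Col and mms19-1 libraries. The ratio used throughout is log2 of mms19-1 over Col after adding 0.1 FPKM to both, so it understates the change of weakly expressed genes. Its median was -0.02, the 25th and 75th percentiles were -0.14 and 0.10, and 94.95% of genes lay within 1.5-fold. At more than 2-fold, 204 genes were higher in mms19-1 (1.03% of those measured) and 159 were lower (0.804%). With 1 library of each genotype there was no replicate to check these counts against, so they carry no p-value.

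Reads per gene were worked back from the FPKM and the transcript length, because 1 read in Col is worth 57.2 FPKM at a transcript of 72 nt and 0.0137 FPKM at 1500 nt. Of the genes past 2-fold, 33 that were higher and 33 that were lower encode miRNAs, snoRNAs or tRNAs. None of these had an estimate of at least 50 reads in Col and mms19-1 together. For 27 of all the higher genes and 21 of all the lower genes no estimate could be made, so their read numbers are unknown. With at least 50 reads, 127 genes were higher (0.657% of 19335) and 86 were lower (0.445%). The largest rises and falls named below were taken from these. Other genes below were named at any ratio or read number. Of the 127, 25 were more than 4-fold higher, and of the 86, 12 were more than 4-fold lower. The fold changes below carry a 95% exact interval from the estimated reads, which covers counting error only. That interval lay wholly beyond 2-fold for 68 of the higher and 53 of the lower genes. The spread of the ratios narrowed with the level, from an SD of 0.49 among 2499 genes between 1 and 3 FPKM to 0.21 among 1350 genes above 100 FPKM.

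**Figure D1:**
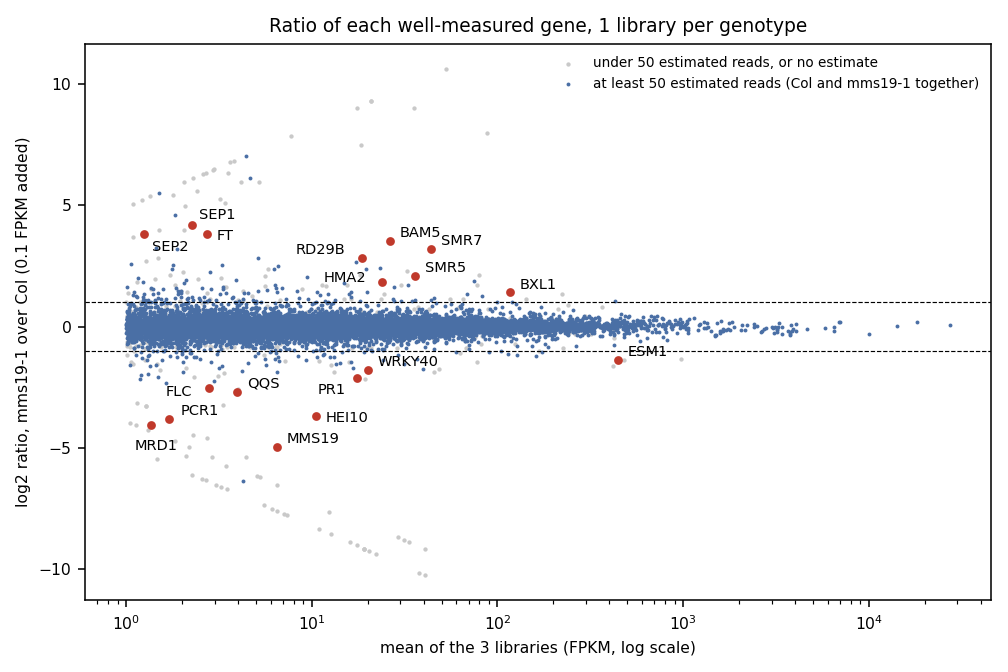
Log2 ratio of mms19-1 over Col (0.1 FPKM added) against the mean of the 3 libraries (FPKM, log axis) for each well-measured gene, with blue points for genes with at least 50 estimated reads, grey points for the rest, red points for named genes and dashed lines at 2-fold. MMS19 has the ratio -4.97, SEP1, SEP2 and FT lie between 3.82 and 4.19, and the points farthest from 0 are mostly grey.

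The targeted gene was checked first. MMS19 was at 10.14 FPKM in Col, 0.228 FPKM in mms19-1 and 9.01 FPKM in abo4. The mms19-1 level was 2.25% of that in Col (interval 1.63 to 3.05%), from 43 reads against 2082. On the log2 scale with 0.1 FPKM added, this was the largest fall of any gene with a symbol and at least 50 reads. The next gene on the same strand, AT5G48110, stood at 5.53 FPKM in Col and 4.69 FPKM in mms19-1.

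Most partners and clients of MMS19 differed little from the wild type in RNA level. The 6 genes of cytosolic iron-sulfur assembly lay between -0.23 (NAR1) and 0.09 (NBP35) on the log2 scale, all within 1.5-fold. Of 12 measured genes for nuclear enzymes that carry or are thought to carry a cluster, 11 lay within 1.5-fold, as did 94.95% of all genes. The gene under the limit, AT1G20750, was at 0.00552 FPKM in Col, 0.373 FPKM in mms19-1 and 1.03 FPKM in abo4, with 1, 62 and 166 reads, a ratio of 67.7 between mms19-1 and Col (interval 11.7 to 2716). ABO4 itself was at 5.03 FPKM in Col, 6.95 FPKM in mms19-1 and 8.09 FPKM in abo4. The measured gene past 2-fold was ROS1, the DNA glycosylase that removes methylated cytosine, with 27.5 FPKM in Col, 58.6 FPKM in mms19-1 and 21.7 FPKM in abo4. It was 2.13-fold higher in mms19-1 (interval 2.07 to 2.19), while its relatives DME (16.3 and 16.7 FPKM) and DML2 (6.46 and 6.26 FPKM) differed little and DML3 (2.14 and 2.92 FPKM) was 1.36-fold higher (1.19 to 1.56). Of 20 measured genes for DNA methylation and silencing, 19 lay within 1.5-fold, beside 94.95% of all genes. None passed 2-fold with 0.1 FPKM added. The silencing target SDC had 0.371 FPKM in Col and 0.746 FPKM in mms19-1, and its log2 ratio with 0.1 FPKM added was 0.84. Both values were under 1 FPKM, so SDC reached the limit only through abo4.

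Genes of the DNA damage response were often higher in mms19-1. Of 24 genes on the list, 22 were well measured, 7 of them were more than 2-fold higher and none was more than 2-fold lower, beside 1.03% and 0.804% of all genes. The median log2 ratio of the 22 was 0.71, against -0.02 over all genes. One gene, NAC044, reached the limit although its Col value was under 1 FPKM.

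The inhibitors of the cell cycle gave the largest ratios of this list. SMR7, an inhibitor of cyclin-dependent kinases that is induced by DNA damage, was at 3.31 FPKM in Col, 31.0 FPKM in mms19-1 and 97.3 FPKM in abo4, a 9.37-fold difference between mms19-1 and Col (interval 7.46 to 11.8). SMR5, of the same family, was at 9.81, 42.4 and 56.3 FPKM in the same order and was 4.32-fold higher in mms19-1 (3.02 to 6.29). SMR5 overlaps ftsh10 on the other strand over 266 bases, which is the whole of SMR5. Without strand information, reads from SMR5 cannot be told from reads of ftsh10 in this stretch. The level of ftsh10 was 19.1 FPKM in Col and 21.7 FPKM in mms19-1. SMR4 was under the limit, at 0.604 FPKM in Col and 0.660 FPKM in mms19-1. In both SMR genes that passed 2-fold, mms19-1 lay between Col and abo4.

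Repair genes showed smaller ratios. BRCA1, which acts in homologous recombination, was at 4.29 FPKM in Col, 11.1 FPKM in mms19-1 and 21.4 FPKM in abo4, 2.59-fold higher in mms19-1 (2.37 to 2.83). In the same order, PARP2, a poly(ADP-ribose) polymerase that marks DNA breaks, was at 7.63, 20.8 and 31.0 FPKM. XRI1, induced by X-rays, was at 13.8, 28.4 and 61.8 FPKM. The order Col, mms19-1, abo4 held in each of these 3 genes.

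Among the signalling genes, NAC044, a relative of SOG1, was at 0.743 FPKM in Col, 2.40 FPKM in mms19-1 and 6.77 FPKM in abo4. SOG1 itself, ATM and ATR were at 10.01, 5.34 and 1.18 FPKM in Col and at 9.84, 4.97 and 1.14 FPKM in mms19-1. Just short of 2-fold were CYCB1;1, the B-type cyclin gene that responds to damage (3.86 and 7.43 FPKM), GR1 (1.35 and 2.44 FPKM) and TSO2, a subunit of ribonucleotide reductase (61.5 and 107 FPKM). KU70 and KU80, of the end-joining pathway, differed by less than 1.5-fold. WEE1, the checkpoint kinase, had the lowest ratio of the list, -0.40, with 2.09 FPKM in Col and 1.57 FPKM in mms19-1. NAC085, the other relative of SOG1, was below the limit with 0.0210 FPKM in Col and 0.802 FPKM in mms19-1.

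The 19 genes of the cell cycle and DNA replication all lay within 1.5-fold, beside 94.95% of all genes. Their log2 ratios ran from -0.33 (MCM6) to 0.27 (CYCB1;3). CYCB1;5, another B-type cyclin gene, was lower in both mutants than in Col, at 3.21 FPKM in Col, 0.677 FPKM in mms19-1 and 0.569 FPKM in abo4.

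Floral genes were among the largest rises. Of 12 floral identity genes, 7 were well measured and 5 of these were more than 2-fold higher in mms19-1 (1.03% of all genes). Their median log2 ratio was 1.46, or 0.85 with 1 FPKM added and 0.57 over the 3 genes whose mean reached 5 FPKM, but it is not support for a shift, because 3 of the 7 were under 1 FPKM in Col and reached the limit through the mutant libraries. SEP1, a MADS-box gene that acts in all floral whorls, was at 0.134 FPKM in Col, 4.15 FPKM in mms19-1 and 2.46 FPKM in abo4, or 9, 258 and 148 reads, a 31.1-fold difference between mms19-1 and Col (interval 16.2 to 69.2). Its close relative SEP2 had 1 read in Col and 101 in mms19-1, at 0.0147 and 1.53 FPKM, a ratio of 104 with an interval from 19.3 to 4398. SEP3 was at 1.93, 6.09 and 12.6 FPKM in Col, mms19-1 and abo4, and PI, which specifies petals and stamens, was at 0.660, 1.99 and 3.28 FPKM. FUL, which acts in the inflorescence meristem and the fruit, was at 2.47, 5.27 and 4.47 FPKM. All 5 were higher in abo4 than in Col as well.

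The other 2 measured floral genes did not pass 2-fold. SEP4 was at 10.97 FPKM in Col and 16.4 FPKM in mms19-1, and AP2 was at 13.8 and 11.9 FPKM. The 5 genes under the limit had low values that were higher in mms19-1, namely LFY (0.0168 and 0.441 FPKM), AP1 (0.104 and 0.627 FPKM), AP3 (0.214 and 1.495 FPKM), AG (0.161 and 0.513 FPKM) and CAL (0.0855 and 0.210 FPKM). None of 4 genes of anthers and pollen was well measured, and their summed level was 0.0557 FPKM in Col, 0.111 FPKM in mms19-1 and 0.0844 FPKM in abo4. ATA7 was listed at 0 in every library. In whole seedlings, a change in the number of cells of a type and a change in RNA per cell cannot be told apart.

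**Figure D2:**
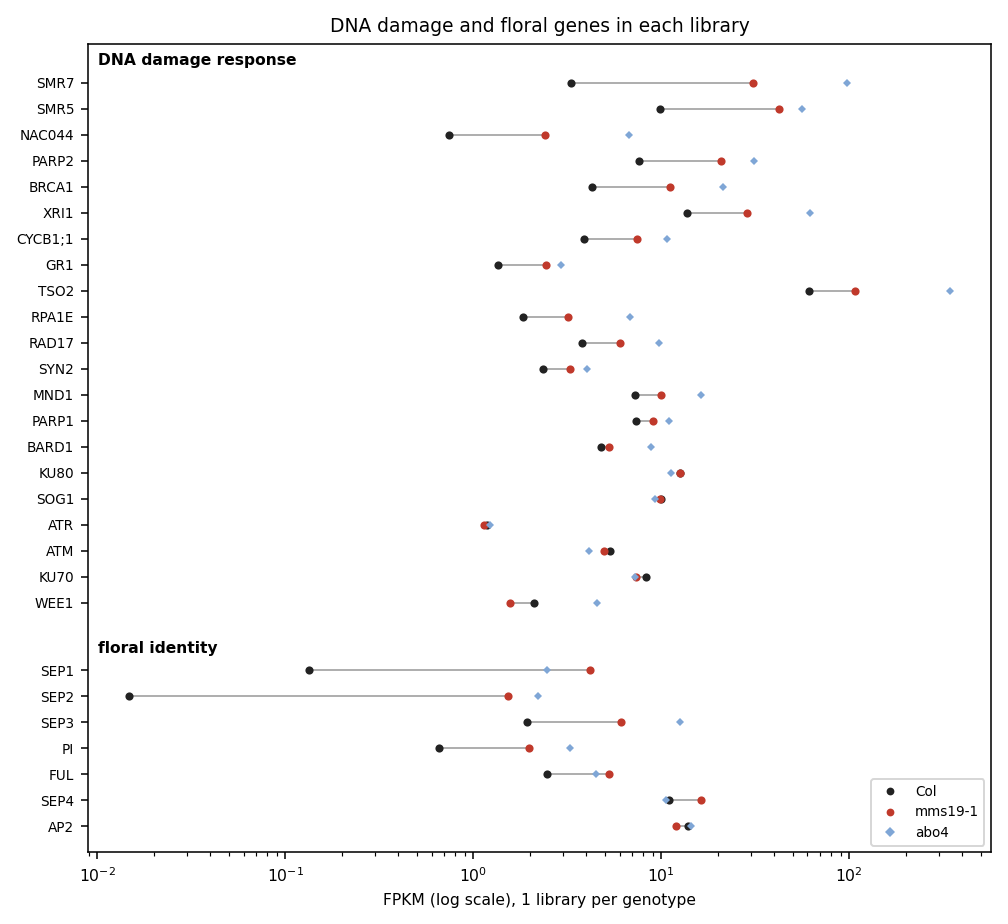
FPKM (log axis) of well-measured DNA damage and floral identity genes in Col (black), mms19-1 (red) and abo4 (blue diamonds), with 1 library per genotype and a grey line from Col to mms19-1. SMR7 runs from 3.31 to 31.0 FPKM and SEP2 from 0.0147 to 1.53 FPKM, whereas SOG1, ATR and KU80 hardly move.

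The flowering time genes moved in both directions. Of 24 genes on the list, 22 were well measured, with 2 more than 2-fold higher and 4 more than 2-fold lower (1.03% and 0.804% of all genes), and the median log2 ratio was -0.17. FT, one of the 2 higher genes, was under 1 FPKM in Col and reached the limit through the mutant libraries. FT was at 0.274 FPKM in Col, 5.17 FPKM in mms19-1 and 2.75 FPKM in abo4, 18.9-fold higher in mms19-1 than in Col (10.03 to 40.1, from 173 and 10 reads). TFL1, a relative of FT that delays flowering, was at 1.73, 4.14 and 1.99 FPKM. SOC1, an activator downstream of FT and FLC, was at 45.9, 81.0 and 63.1 FPKM, a 1.77-fold difference between mms19-1 and Col.

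The repressors gave the falls. FLC was at 7.03 FPKM in Col, 1.11 FPKM in mms19-1 and 0.223 FPKM in abo4, 6.31-fold lower in mms19-1 (4.62 to 8.86). MAF4 and MAF5, 2 relatives of FLC that lie side by side on chromosome 5, were at 6.52 and 13.3 FPKM in Col, at 1.91 and 3.59 FPKM in mms19-1 and at 1.11 and 2.54 FPKM in abo4. TEM2, which represses FT directly, was at 186 FPKM in Col, 84.0 FPKM in mms19-1 and 72.6 FPKM in abo4. Each of these 4 genes was lower in both mutant libraries than in Col. Their relatives varied less between mms19-1 and Col, with 47.5 and 30.7 FPKM for MAF2, 14.5 and 14.7 FPKM for MAF3, 51.3 and 36.8 FPKM for FLM in Col and mms19-1. TEM1 was at 134 and 93.0 FPKM. How reads shared by such related genes were assigned is not stated.

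Several genes for seed proteins and 1 gene of the response to abscisic acid were more than 2-fold higher in mms19-1. RD29B, a dehydration gene driven by abscisic acid, was at 6.36 FPKM in Col, 46.3 FPKM in mms19-1 and 3.03 FPKM in abo4, 7.28-fold higher in mms19-1 than in Col (6.71 to 7.89). It was the only one of 16 measured abscisic acid and dehydration genes past 2-fold (1.03% of all genes were higher). RAB18, a dehydrin gene, followed with 129, 222 and 40.5 FPKM. The median of the 16 was 0.25, and 14 lay within 1.5-fold, beside 94.95% of all genes. Of the 16, 14 were higher in mms19-1 than in Col by some amount, beside 44.9% of all genes.

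Of 9 seed storage genes, 5 were well measured, and 2 of them reached the limit only through mms19-1. These were the 2S albumin genes SESA3 (0.316 FPKM in Col, 3.86 FPKM in mms19-1 and 0.143 FPKM in abo4) and SESA2 (0.403, 4.47 and 0.758 FPKM), neighbours on chromosome 4. They were 12.2-fold (6.41 to 26.2) and 11.1-fold (6.13 to 22.1) higher in mms19-1, from 10 and 12 reads in Col. The cruciferin gene CRA1 was at 10.13, 18.8 and 5.03 FPKM. The albumin genes are similar copies, so the division of reads among them is uncertain. Summed over all 9 genes, the level was 18.4 FPKM in Col, 40.4 FPKM in mms19-1 and 11.3 FPKM in abo4, and none of the 9 was at 0 in all libraries.

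A list of genes of late seed development was written after their values were seen. Of 13 genes, 8 were well measured and 7 of these were more than 2-fold higher in mms19-1 (1.03% of all genes). Of the 7, GEA6, M17 and AT3G53040 were under 1 FPKM in Col and reached the limit through libraries in which they were higher, so the count is a description. LEA7, for a late embryogenesis abundant protein, was at 17.9 FPKM in Col, 55.1 FPKM in mms19-1 and 10.11 FPKM in abo4. AT3G02480, of the same broad family, was at 21.1, 69.7 and 8.05 FPKM, and GEA6 was at 0.878, 2.16 and 0.397 FPKM. M17 differed from these in being higher in abo4 than in Col (0.928 FPKM in Col, 3.03 FPKM in mms19-1 and 1.59 FPKM in abo4). The regulators of seed development ABI3 (0.134 and 0.105 FPKM in Col and mms19-1), FUS3 (0.894 and 0.529 FPKM) and ABI5 (0.941 and 0.847 FPKM) were under the limit and not higher in mms19-1. Whether seed coats or late-germinating seeds in a sample took part in these values was not tested.

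Zinc transport genes were also gathered after their values were seen, starting from HMA2. HMA2, a plasma membrane pump that exports zinc into the vascular stream, was at 12.04 FPKM in Col, 43.1 FPKM in mms19-1 and 16.7 FPKM in abo4, 3.58-fold higher in mms19-1 (3.40 to 3.77). Of 14 genes, 10 were well measured and 4 were more than 2-fold higher in mms19-1 (1.03% of all genes). The other 3 encode transporters of the ZIP family, which carry zinc into cells. They were ZIP4 (3.49 FPKM in Col, 9.58 FPKM in mms19-1 and 6.40 FPKM in abo4), IRT3 (8.79, 19.0 and 12.3 FPKM) and ZIP1 (7.35, 15.1 and 9.05 FPKM). ZIP5 was just under 2-fold, at 3.38 and 6.69 FPKM in Col and mms19-1. HMA4, the closest relative of HMA2 with the same role, was at 16.3 and 16.9 FPKM. ZIP1 overlaps ALIS1 on the other strand over 125 bases, and ALIS1 stood at 52.7 and 50.3 FPKM.

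All 25 iron genes on the list were well measured. Of these, 23 lay within 1.5-fold, beside 94.95% of all genes, none was more than 2-fold higher, 1 was more than 2-fold lower and the median was 0.05. NAS2, which makes the metal chelator nicotianamine, was at 1.32 FPKM in Col, 0.410 FPKM in mms19-1 and 4.35 FPKM in abo4. IRT1, the main iron importer of the root, was at 14.5, 7.30 and 17.5 FPKM, or 50.4% of the Col level in mms19-1 (42.7 to 59.3%). Its regulators FIT (2.86 and 2.42 FPKM) and BHLH101 (21.1 and 28.7 FPKM) and the ferritin gene FER1 (132 and 160 FPKM) differed by less than 1.5-fold. CYP82C4, which makes an iron-binding coumarin in the root, was not on the list and was at 1.84 FPKM in Col, 0.397 FPKM in mms19-1 and 1.68 FPKM in abo4. The 6 root markers all lay within 1.5-fold.

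**Figure D3:**
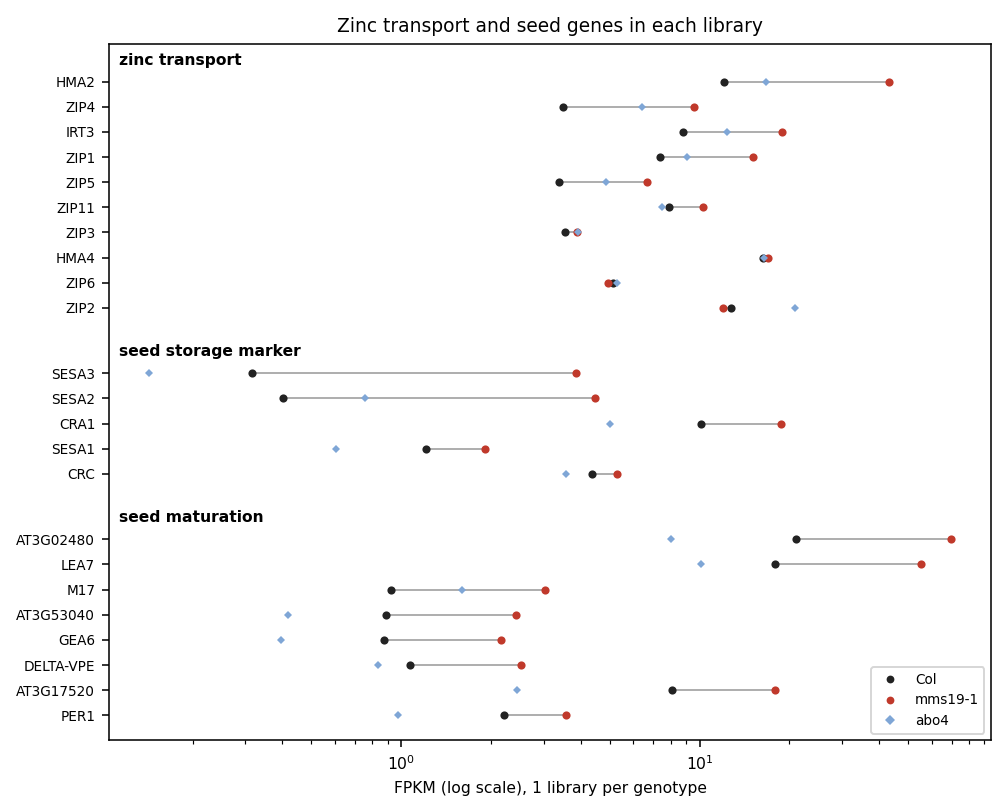
FPKM (log axis) of the well-measured zinc transport, seed storage and seed maturation genes in Col (black), mms19-1 (red) and abo4 (blue diamonds), with 1 library per genotype. The lists of zinc transport and seed maturation genes were written after their values were seen. HMA2 stands at 43.1 FPKM in mms19-1 against 12.04 FPKM in Col, and LEA7, CRA1 and AT3G02480 are lower in abo4 than in Col.

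Genes that act on foreign compounds and reactive carbonyls were gathered in the same way. Of 17 such genes, all well measured, 6 were more than 2-fold higher in mms19-1 (1.03% of all genes). Of the 6, UGT74E2 and UGT73B4 were under 1 FPKM in Col and reached the limit through the mutant libraries. UGT74E2, a glucosyltransferase acting on the auxin indole-3-butyric acid, was at 0.583 FPKM in Col, 3.84 FPKM in mms19-1 and 0.965 FPKM in abo4, 6.58-fold higher in mms19-1 (4.86 to 8.99). CYP81D11, a cytochrome P450 induced by xenobiotics, was at 2.46, 13.2 and 3.21 FPKM. NIT2, a nitrilase, was at 9.49, 24.0 and 14.1 FPKM, and ChlAKR, a reductase of reactive carbonyls, was at 1.73, 5.60 and 2.63 FPKM. In abo4, each of these 4 genes was nearer to its Col level than to its mms19-1 level. UGT73B4 (0.919 and 1.95 FPKM in Col and mms19-1) overlaps UGT73B5 on the same strand over 1866 bases, so its value is uncertain.

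Several further genes with large rises belong to carbohydrate use. BAM5, a cytosolic β-amylase, was at 4.42 FPKM in Col, 52.2 FPKM in mms19-1 and 22.5 FPKM in abo4, 11.8-fold higher in mms19-1 (10.7 to 13.0) from 4998 reads against 462. BXL1, a xylosidase of the cell wall that is induced by sugar starvation, was at 70.6, 187 and 92.5 FPKM. SIP2 and DIN10, of the raffinose synthase family, were at 17.7 and 16.2 FPKM in Col and 38.7 and 34.1 FPKM in mms19-1. These 3 were the genes past 2-fold (1.03% of all genes were higher) among 9 sugar starvation genes that were also listed after the values were seen. Of the 9, 6 lay within 1.5-fold, beside 94.95% of all genes. The best known marker of that state, DIN6, was at 111 and 135 FPKM.

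The remaining named rises were of unrelated genes. RTFL7, for a small peptide of the ROT-FOUR family, was at 1.38 FPKM in Col, 8.30 FPKM in mms19-1 and 10.14 FPKM in abo4. RTFL12, of the same family, went the other way in both mutants, at 23.1, 7.77 and 9.84 FPKM. TIM17-1, a subunit of the mitochondrial import channel, was at 0.369, 2.303 and 2.65 FPKM, and GEX1, known from gametes, was at 0.586, 2.52 and 3.22 FPKM. Of the 127 higher genes with at least 50 reads, 60 had no symbol. The 2 largest rises of these were AT3G29633, listed at 0 in Col and abo4 with 503 reads and 13.2 FPKM in mms19-1, at least 183-fold higher when 3 reads are taken as the floor in Col (lower limit of the counting interval 148), and AT5G03204, at 0, 6.88 and 7.12 FPKM in Col, mms19-1 and abo4, at least 33.5-fold higher on the same basis (lower limit 26.7). Both encode uncharacterized proteins.

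Genes that respond within minutes to touch, wounding or cold mostly had lower values in mms19-1. All but 1 of the 16 on the list were well measured, and of these 15 genes, 13 were lower by some amount (beside 55.0% of all genes), 6 were more than 2-fold lower and none was more than 2-fold higher (0.804% and 1.03% of all genes). The median was -0.81. WRKY40, a transcription factor of early defence, was at 34.4 FPKM in Col, 9.90 FPKM in mms19-1 and 16.0 FPKM in abo4, 3.48-fold lower in mms19-1 (3.17 to 3.82). TCH3, a calmodulin-like gene induced by touch, was at 190, 92.6 and 236 FPKM. The cold regulator CBF2 was at 3.44, 1.31 and 2.75 FPKM, ERF6 was at 14.2, 6.25 and 14.1 FPKM, WRKY33 was at 144, 70.1 and 55.0 FPKM and WRKY53 was at 16.1, 7.25 and 11.4 FPKM. WRKY18 stood on the other side, at 4.88 and 6.86 FPKM in Col and mms19-1. Handling at harvest was not recorded in the sources used here, and its part in these values was not tested.

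Among 15 genes of salicylic acid and immunity, 12 were well measured, 2 were more than 2-fold lower in mms19-1, none was more than 2-fold higher (0.804% and 1.03% of all genes), and the median was -0.38. PR1, the standard marker of the salicylic acid response, was at 7.09 FPKM in Col, 1.54 FPKM in mms19-1 and 43.7 FPKM in abo4, 4.60-fold lower in mms19-1 (3.46 to 6.30). PR2, a glucanase, was at 4.71, 1.99 and 8.13 FPKM, and LURP1, a gene of pathogen defence that was not on the list, was at 9.29, 3.54 and 59.5 FPKM. For these 3 genes, Col lay between the mutants. SID2, for the enzyme of the main route to salicylic acid, was at 14.3 and 15.6 FPKM in Col and mms19-1, and NPR1, the receptor, was at 14.5 and 13.1 FPKM. No jasmonate gene passed 2-fold among 15 measured (1.03% of all genes were higher and 0.804% lower). Of the 15, 8 lay within 1.5-fold, beside 94.95% of all genes. By some amount, 10 were lower and 5 higher in mms19-1. LOX3 and LOX4 were at 51.8% and 51.7% of their Col levels, and JAZ7 was 1.98-fold higher.

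The named falls at higher levels also held ESM1 and MBP1. ESM1, which steers the products of myrosinase, was at 833 FPKM in Col, 318 FPKM in mms19-1 and 187 FPKM in abo4, 2.62-fold lower in mms19-1 (2.58 to 2.66). MBP1, a myrosinase-binding protein, was at 29.1, 8.89 and 11.95 FPKM. The 13 genes on the list for glucosinolate synthesis all lay within 1.5-fold of Col, beside 94.95% of all genes. Their log2 ratios ran from -0.21 (MAM3) to 0.17 (MAM1).

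A pair of adjacent genes on chromosome 1 had some of the largest falls. MRD1 (positions 19963047 to 19964712, minus strand) was at 2.28 FPKM in Col, 0.0415 FPKM in mms19-1 and 1.74 FPKM in abo4, with 82, 1 and 55 reads, a 55.0-fold difference between Col and mms19-1 with an interval from 13.1 to 3002. HEI10, which in meiosis sets the sites of crossovers, was at 14.7, 1.05 and 15.7 FPKM, 14.1-fold lower in mms19-1 (9.97 to 19.97). The genes overlap over 1446 bases on opposite strands, and without strand information reads from one cannot be told from reads from the other. The neighbours did not share the fall. MSL4 before the pair was at 6.50 FPKM in Col and 7.16 FPKM in mms19-1, and MUM4 after it was at 29.6 and 28.4 FPKM. In abo4 both genes of the pair were near the Col level.

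A second run of lower genes lay on the same chromosome as MMS19, mostly among pseudogenes. AT5G34790, AT5G34795 and AT5G34800 follow each other and were at 1.58, 1.37 and 1.90 FPKM in Col and at 0.551, 0.222 and 0.297 FPKM in mms19-1, with 2.54, 1.98 and 2.72 FPKM in abo4. The next 3 loci, AT5G34810, AT5G34820 and AT5G34825, were under the limit and lower too, at 0.544, 0.352 and 0.365 FPKM in Col and at 0.0848, 0 and 0.0468 FPKM in mms19-1. After them AT5G34830, annotated as protein coding and also under the limit, was at 0.608 FPKM in Col and 0.0737 FPKM in mms19-1. Among the 86 lower genes with at least 50 reads there were 6 pairs of neighbours in the order of such genes, and among the 127 higher genes there were 2.

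**Figure D4:**
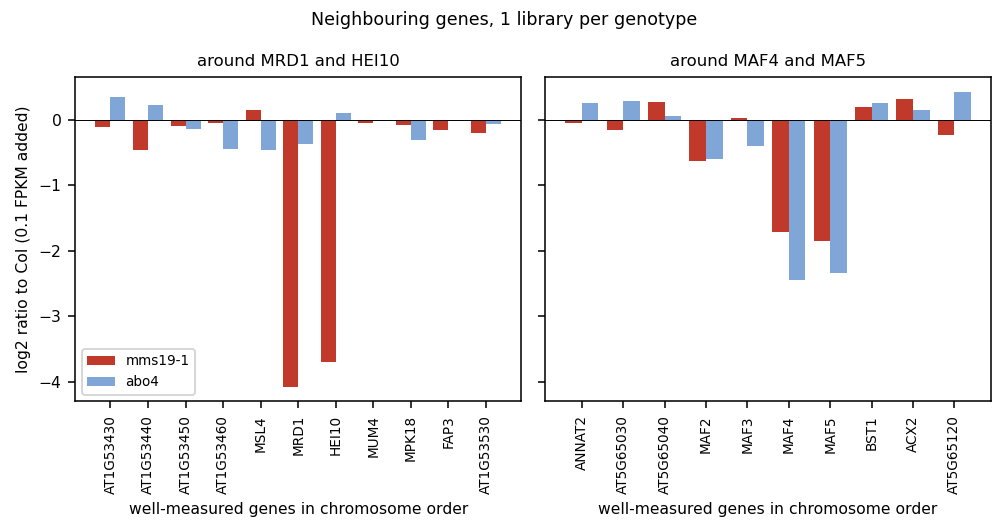
Log2 ratio to Col (0.1 FPKM added) of well-measured genes in chromosome order around MRD1 and HEI10 (left) and around MAF4 and MAF5 (right), with red bars for mms19-1 and blue bars for abo4, 1 library each. MRD1 and HEI10 reach -4.07 and -3.69 in mms19-1 and lie at -0.37 and 0.10 in abo4, whereas MAF4 and MAF5 are lower in both mutants.

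The other named falls were of single genes. PCR1, a small membrane protein linked to cadmium resistance, was at 2.29 FPKM in Col, 0.0694 FPKM in mms19-1 and 2.73 FPKM in abo4, with 94, 3 and 100 reads, a ratio of 33.0 between Col and mms19-1 (9.52 to 142). QQS, a gene found only in Arabidopsis thaliana that affects starch content, was at 5.79, 0.815 and 5.32 FPKM, 7.10-fold lower in mms19-1 (4.35 to 12.03). RLP18, annotated as a transcribed pseudogene of a receptor-like protein, was at 1.51, 0.441 and 1.1995 FPKM. PAP2, a regulator of anthocyanin synthesis, was at 3.51, 1.22 and 3.81 FPKM. It was the only one of 16 measured flavonoid genes past 2-fold (0.804% of all genes were lower). Of the 86 lower genes with at least 50 reads, 47 had no symbol. The largest fall of these was AT1G07885, at 8.18 FPKM and 74 reads in Col, listed at 0 in mms19-1 and at 4.62 FPKM in abo4, at least 22.7-fold lower in mms19-1 with 3 reads as the floor (lower limit 17.9).

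Some other processes of the seedling differed little between Col and mms19-1. All 15 photosystem and Rubisco genes, all 16 measured clock genes, all 6 phosphate starvation genes and all 11 reference genes lay within 1.5-fold. Over all genes the share within 1.5-fold was 94.95%. The medians of these lists were -0.11, -0.02, -0.19 and 0.03. All 6 phosphate starvation genes were lower in mms19-1 by some amount, beside 55.0% of all genes. The morning gene CCA1 was at 86.2 FPKM in Col and 90.02 FPKM in mms19-1, beside 39.4 FPKM in abo4. The 9 measured heat shock genes had a median of 0.40, none was past 2-fold and 7 lay within 1.5-fold. By some amount, 7 of the 9 were higher in mms19-1, beside 44.9% of all genes. Of 9 nitrogen and sulfur genes and 8 auxin response genes, none passed 2-fold (1.03% of all genes were higher and 0.804% lower). Their medians were 0.05 and -0.06. Within 1.5-fold lay 8 of the 9 nitrogen and sulfur genes and 6 of the 8 auxin genes, beside 94.95% of all genes.

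**Figure D5:**
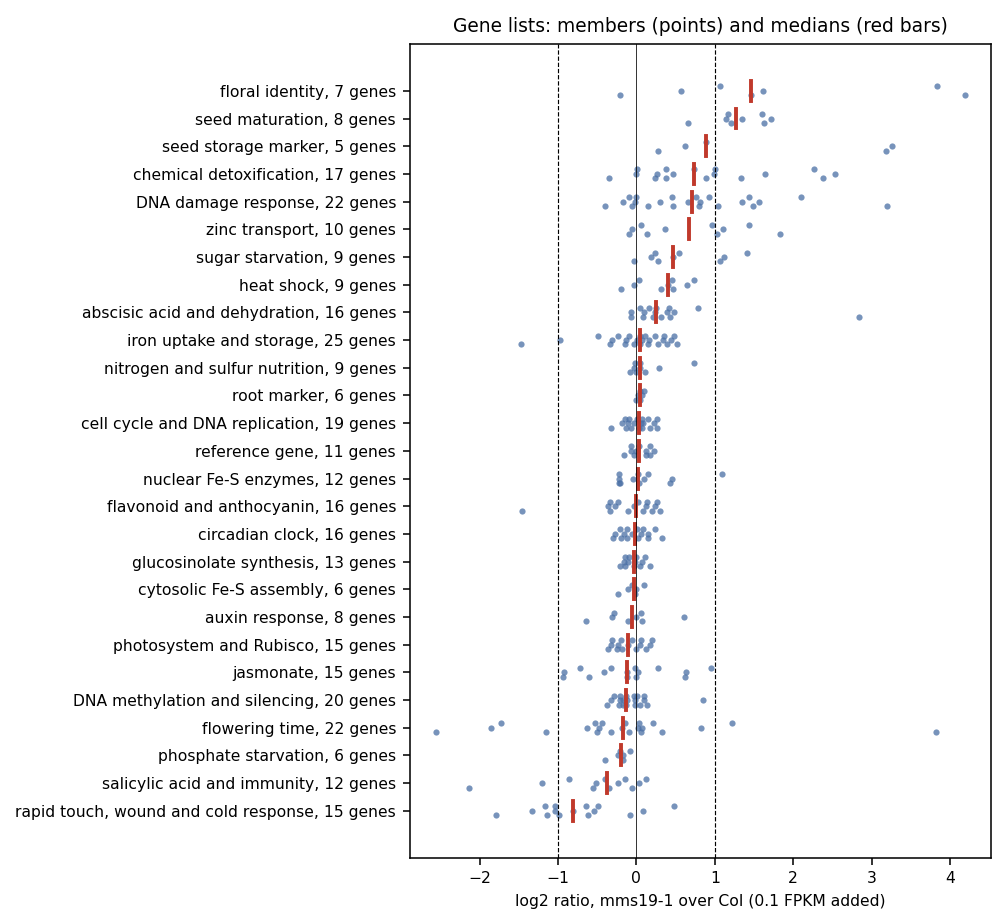
Log2 ratio of mms19-1 over Col (0.1 FPKM added) of the well-measured members of each gene list (points, spread vertically for legibility) with the list medians (red bars) and dashed lines at 2-fold. The lists for seed maturation, zinc transport, sugar starvation and chemical detoxification were written after their values were seen. The medians run from 1.46 for floral identity to -0.81 for the rapid touch, wound and cold genes, and those of the reference genes and the clock lie near 0.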

How the data were processed

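Seedling poly(A) RNA was sequenced in 1 library per genotype. The authors aligned 45-bp reads to TAIR10 with TopHat2 2.0.12 (Bowtie), and deposited FPKM values from Cufflinks 2.0.1 and Cuffdiff, without log transformation, in a table of 34133 entries. Library strandedness and the treatment of reads with several matches are not given in the sources used here. No column was left unused.

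Of several entries for a locus, the one with the larger mean was kept, which left out 574. Reads were estimated from the FPKM and the effective length of the median TAIR10.1 transcript (fragments of mean 200 nt, SD 80 nt, at least 49 nt). Library totals of 56187543 (Col), 51466769 (mms19-1) and 49759871 (abo4) made 95.9%, 95.5% and 93.0% of values at 97, 88 and 86 short genes whole within 0.05. At longer genes the estimates are approximate, and 153 members have none. Of 384 loci with TAIR10 positions in the study's tables, 384 overlapped their TAIR10.1 positions.

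Genes were described by log2 of mms19-1 over Col with 0.1 FPKM added. No test between genotypes was possible. Named genes were MMS19, the 15 largest rises and 15 largest falls with a symbol and at least 50 reads, the 8 largest of each with a mean of at least 10 FPKM, at most 2 genes without a symbol per direction, and in each of 24 lists the members past 2-fold and the extremes. Other genes were named after their values were seen. Some list members that met the rule are not reported here. The members and lists were chosen with earlier results of these data known, and 4 further lists after their values were seen. Alternatives were 0.01 or 1 FPKM added, no minimum or 5 FPKM, a 4-fold limit, centred ratios, summed entries, minimum reads and protein-coding loci. The calculation was tested on simulated data. Python 3.11.15, numpy 2.4.6, pandas 2.3.3, scipy 1.17.1 and matplotlib 3.10.9 were used.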

Additional observations from a re-analysis of the deposited data

How the results depend on the processing

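The counts of 204 higher and 159 lower genes moved by more than 1.5 times where weakly measured genes entered or left. With no minimum level they were 628 and 432, and with a mean of at least 5 FPKM they were 81 and 81. With 1 FPKM added, 132 genes were higher. A 4-fold limit left 64 and 62. With at least 20 estimated reads, 101 genes were lower, and with at least 50, a limit chosen after seeing the data, 127 were higher and 86 lower. Among protein-coding loci only, also chosen afterwards, 104 were lower. The remaining alternatives kept each count within 1.5 times. The 23 list medians moved by less than the SD of their members in every alternative run, but that of floral identity fell from 1.46 to 0.85 with 1 FPKM added and to 0.57 over the 3 genes whose mean reached 5 FPKM. Of 93 named genes, none past 2-fold changed sign, and 48 of the 57 past 2-fold were still past it with 1 FPKM added. The ratio left its counting interval for 37 of the 93 with 1 FPKM added and for 5 when centred on the median of all genes. No paired analysis was possible because each genotype has 1 library. For the same reason no library could be left out. Depth limits the genes with few reads in Col, such as SEP2, and short RNAs, at which 1 read is worth many FPKM.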
